A study of Mus musculus with 32 samples.

Results

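The adhesion receptors and junction proteins of the mammary gland form 46 of the 8251 mouse genes that had a probe set of their own on these arrays. They were chosen by name: symbols that start with Itga, Itgb, Cdh followed by a digit, Pcdh or Ctnn, plus Jup, Dsp, Dsg2 and Dsc2. Where a gene had several probe sets, as 20 of the 46 did, the one that read brightest on average across the 32 arrays stood for it, and the others were used as a check. By role the 46 genes comprise 6 integrin chains of laminin and collagen receptors, 5 of receptors that bind the RGD motif or tenascin-type ligands, 8 of leukocyte and platelet receptors, 11 classical cadherins, 2 other cadherins, 2 protocadherins, 8 catenins and 3 desmosomal proteins. The last is Itgb1bp1, a cytoplasmic protein that binds the tail of the beta 1 chain and is no integrin itself.

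The study followed wild-type FVB mice through pregnancy, lactation and a change of diet, with a single array for each tissue sample. In the time course, dams on normal chow gave mammary gland at pregnancy days 12 and 17 (PD12 and PD17) and at lactation days 1, 2 and 9 (LD1, LD2 and LD9), with 4 arrays a stage. In the diet series, 3 mammary arrays each came from dams on 40%, 16% and 8% of energy as fat, and 3 liver arrays from dams on 8% fat. Per the design text, soy oil diets of 40% and 8% replaced chow at lactation day 5 and tissue was taken at lactation day 10, while the feeding of the 16% diet and its day are not stated. Groups follow the sample titles, because the description of the mammary 8% and 16% samples names the 40% diet. Liver and mammary samples on 8% fat may come from the same dams, which the labels do not match, and no gene was altered in any group.

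Integrins are paired alpha and beta chains that span the membrane, bind laminin, collagen, fibronectin or other matrix proteins outside, and tie to actin or keratin inside. Cadherins join neighbouring cells at adherens junctions, where beta- and alpha-catenin connect them to actin, and desmosomes join cells through desmogleins and desmocollins held to keratin by plakoglobin and desmoplakin. In the mammary gland, beta 1 integrin contact with laminin is known to be needed for alveolar cells to respond to prolactin and make milk, and the alpha 6 beta 4 pair forms the hemidesmosomes of basal cells.

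The promoters of Itgb1, Itgav and Jup are printed because these genes, described at length for the time course, have an entry in the table and peaked at different stages. Each is a window of 300 bases in RefSeq's table for GRCm38.p6, from 250 bases before to 50 after the listed start, given 5′ to 3′ on the gene's strand. The windows are chr8:128685404-128685703 on the plus strand for Itgb1, chr2:83724147-83724446 on the plus strand for Itgav and chr11:100397741-100398040 on the minus strand for Jup. Capitals mark the CCAAT box (CCAAT) and the GC box (GGGCGG), searched on both strands.
Itgb1: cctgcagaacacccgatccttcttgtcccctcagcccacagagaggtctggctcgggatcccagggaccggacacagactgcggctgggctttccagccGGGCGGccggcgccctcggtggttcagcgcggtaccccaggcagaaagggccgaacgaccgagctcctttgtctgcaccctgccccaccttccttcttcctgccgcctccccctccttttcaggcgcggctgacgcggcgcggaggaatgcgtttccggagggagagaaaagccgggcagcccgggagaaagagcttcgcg
Itgav: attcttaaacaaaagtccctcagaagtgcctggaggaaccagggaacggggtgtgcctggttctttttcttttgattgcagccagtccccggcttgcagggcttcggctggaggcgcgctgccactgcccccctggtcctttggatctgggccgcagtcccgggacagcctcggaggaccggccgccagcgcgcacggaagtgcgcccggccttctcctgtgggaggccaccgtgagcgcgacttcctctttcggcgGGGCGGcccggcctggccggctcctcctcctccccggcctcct
Jup: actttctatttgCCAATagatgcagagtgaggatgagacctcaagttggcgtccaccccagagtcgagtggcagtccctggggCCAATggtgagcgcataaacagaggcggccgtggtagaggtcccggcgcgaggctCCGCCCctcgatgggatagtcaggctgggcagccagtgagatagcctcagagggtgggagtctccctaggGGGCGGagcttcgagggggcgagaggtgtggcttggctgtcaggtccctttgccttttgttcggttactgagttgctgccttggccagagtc
The Jup window held 2 CCAAT boxes and 2 GC boxes, and the windows of Itgb1 and Itgav held 1 GC box each and no CCAAT box. The STAT motif (TTCNNNGAA) and the E-box (CANNTG) had no match in these windows. Of the 32851 promoters in the table, 37.4% held a CCAAT box, 35.7% a GC box, 8.3% the STAT motif and 72.3% an E-box. A promoter was listed for 27 of the 46 genes.

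Values are log2 intensities, and a change is a difference of group means on that scale, so that 1 stands for 2-fold. The deposited intensities had been background-corrected and normalized, with a median per array from 16.1 to 21.5. The mean correlation of an array with the others of its group was 0.988 to 0.995 over all probe sets, a range too narrow to single out an array. Tests were run on probe sets whose largest group mean in a fit was at least 4.22, the median of all values. Values below that line do not stand clear of background, so the size of a change to or from them was not measured. Calls are at an adjusted p under 0.05 by limma with Benjamini-Hochberg adjustment over all probe sets tested. The RNA came from whole tissue, so fewer cells of a type and less RNA per cell cannot be told apart. Precision is limited by the 3 or 4 arrays of each group.

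Of the 46 genes, 21 passed that line in the time course and 25 lay below it in all 5 stages, by the probe set that stands for each gene. The 25 include Cdh1, which encodes E-cadherin, the main adherens junction cadherin of epithelium, with group means from 3.39 to 3.62 in mammary gland, and Cdh3, the P-cadherin of basal cells, with 2.81 to 3.11. They also include Itgam and Itgal, the alpha chains of leukocyte receptors, with 2.37 to 2.74 and 3.24 to 3.98. For these genes the array gives no usable level, while of 10 markers of luminal epithelium no more than 2 lay below the line at any stage. Low values as a whole drifted upward over the time course. Group means at LD9 exceeded those at PD12 for 24 of the 25 genes (96%), with a median difference of 0.46, and for 4838 of all 5233 probe sets below the line (92.5%), with a median difference of 0.47.

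Among the 21 genes tested, 19 changed over the 5 stages, where 87.5% of all 7189 probe sets tested did so. Itga3 and Itgb2 were the exceptions (adjusted p = 0.276 and 0.139).

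At PD17 against PD12, 12 of the 21 genes were called (57.1%), against a background of 45.1%: 6 were higher (18.4% of all probe sets) and 6 lower (26.7%). At LD1 against PD17, 5 were called (23.8%), against 23.3%: 2 higher (9.32%) and 3 lower (14.0%). At LD2 against LD1, 5 were called, against 14.3%: 2 higher (6.11%) and 3 lower (8.18%). At LD2 against PD17, 12 were called (57.1%), against 49.9%: 5 higher (25.5%) and 7 lower (24.5%). At LD9 against LD2, 12 were called, against 25.0%: 4 higher (8.82%) and 8 lower (16.2%). At LD9 against PD12, 15 were called (71.4%), against 77.6%: 6 higher (35.2%) and 9 lower (42.4%). The share lay near the background at LD1 against PD17 and at both comparisons that span more than 1 step, and above it at PD17 against PD12, LD2 against LD1 and LD9 against LD2. These gaps were not tested, and without LD9 replicate 1 the count at LD9 against LD2 was 8. Genes that passed the line through their high stages alone, such as Itga8 and Ctnnal1, had to differ, so the counts support nothing by themselves.

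Groups did not overlap for 9 genes at PD17 against PD12 (37.6% of all probe sets tested), 3 at LD1 against PD17 (24.4%), 9 at LD2 against LD1 (28.8%), 11 at LD2 against PD17 (50.3%), 8 at LD9 against LD2 (29.5%) and 14 at LD9 against PD12 (69.8%). The median change of the genes tested at LD2 against PD17 was 0.06, beside 0.04 for all probe sets tested, and at LD9 against LD2 it was -0.17, beside 0.01.

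Itgb1, Itgb4 and Itga6, chains of laminin and collagen receptors, had their highest means at PD17 and were lower at LD2. They are 3 of the 6 chains of this kind: Itga3 was not called at LD2 against PD17 (a change of -0.04, adjusted p = 0.791), and Itga2 and Itga7 lay below the line and were not tested. Itgb1 encodes the beta 1 chain shared by most matrix-binding integrins. It read 9.26, 9.63, 9.03 and 9.29 at PD12 and 10.20, 10.05, 10.21 and 9.99 at PD17. At LD1 it read 9.03, 9.91, 10.13 and 9.94, at LD2 8.54, 8.82, 8.99 and 8.70, and at LD9 7.99, 8.72, 7.75 and 8.04. The PD17 arrays all lay above those of PD12 and of LD2, and a single LD1 array read as low as PD12. Itgb1 was 0.81 (SE 0.21) higher at PD17 than at PD12 (adjusted p = 0.00456), and at LD2 it fell by 1.35 (SE 0.21) relative to PD17 (adjusted p = 5.20e-05) and by 0.99 relative to LD1 (adjusted p = 0.00548). The second Itgb1 probe set fell by 0.81 at LD2 relative to PD17 (adjusted p = 3.75e-04), but differed by 0.20 at PD17 from PD12 (adjusted p = 0.308). At LD9 Itgb1 fell by 1.18 relative to PD12 (adjusted p = 5.07e-05) and by 0.64 relative to LD2 with overlapping arrays (adjusted p = 0.0334), a call lost under quantile normalization (adjusted p = 0.109) and without any 1 of 6 arrays.

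Itgb4 encodes the beta 4 chain, which pairs with alpha 6 at hemidesmosomes. It read 5.66, 5.53, 5.30 and 5.99 at PD12 and 5.92, 5.91, 5.82 and 5.98 at PD17. It then read 4.54, 4.69, 4.51 and 4.40 at LD1, 4.98, 4.53, 4.85 and 4.79 at LD2, and 4.37, 4.29, 4.37 and 4.34 at LD9. The main step lay between PD17 and LD1, where no arrays overlapped. At LD1 Itgb4 fell by 1.37 (SE 0.12) relative to PD17, a 2.58-fold difference (adjusted p = 1.43e-07). From LD1 onward it stood less than 1 log2 unit above the line. At LD9 it fell by 0.45 relative to LD2 (adjusted p = 0.0111), a call that ended when arrays were scaled to the same median of ribosomal protein genes (ribosomal scaling, adjusted p = 0.101), and by 1.28 relative to PD12 (adjusted p = 2.42e-08).

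Itga6, the alpha 6 laminin-binding chain, followed a slower course. It read 8.03, 8.26, 8.05 and 8.24 at PD12, 9.16, 8.86, 10.00 and 9.44 at PD17, and 8.23, 9.15, 8.87 and 9.37 at LD1. It read 8.09, 8.35, 8.74 and 8.65 at LD2 and 7.07, 8.14, 7.83 and 7.68 at LD9. From PD17 on, each stage overlapped the next. Itga6 was 1.22 (SE 0.26) higher at PD17 than at PD12 (adjusted p = 8.32e-04), differed by -0.46 at LD1 from PD17 (adjusted p = 0.222), and at LD2 fell by 0.91 relative to PD17 (adjusted p = 0.00717). With ribosomal scaling the last difference was -0.58 (adjusted p = 0.0799). At LD9 Itga6 fell by 0.78 relative to LD2 with overlapping arrays (adjusted p = 0.0315), a call lost with quantile normalization (adjusted p = 0.088), with ribosomal scaling (adjusted p = 0.0855), with no filter (adjusted p = 0.0501) and without any 1 of 4 arrays. The Itga6 difference of LD9 from PD12 was -0.47 (adjusted p = 0.103). Itga3, a laminin-binding alpha chain, stayed between 4.76 and 5.48 on every array of the time course.

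Markers of both epithelial layers moved at the same time. Of the 6 myoepithelial genes tested at LD2 against PD17, 4 were lower and 0 higher, with a median change of -0.71. The summed intensity of the 8 myoepithelial genes measured was 2250 to 2530 at LD2 against 3950 to 4880 at PD17, and 1020 to 1830 at LD9. The defining markers Krt5, Krt14 and Trp63 lay below the line from PD17 to LD9. Of 10 luminal markers, 7 were lower and 2 higher at LD2 against PD17 (median -0.81). At LD1 against PD17, 6 were lower and 1 higher (median -0.59). Krt7 and Cldn4 lay above the line at PD17 and below it at LD1 and LD2, so both had to read lower. They are among the 10 genes behind these counts and medians. The summed intensity of the luminal markers was 8470 to 9590 at LD2 against 7460 to 8160 at PD17. Of 7 milk protein and secretion genes, 4 were higher and 0 lower at LD2 against PD17 (median 0.40), against 25.5% and 24.5% of all probe sets. Their summed intensity was 199000 to 213000 at LD2 against 154000 to 168000 at PD17. The part of myoepithelial or luminal cells in the falls of Itgb1, Itgb4 and Itga6 was not tested.

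**Figure D1:**
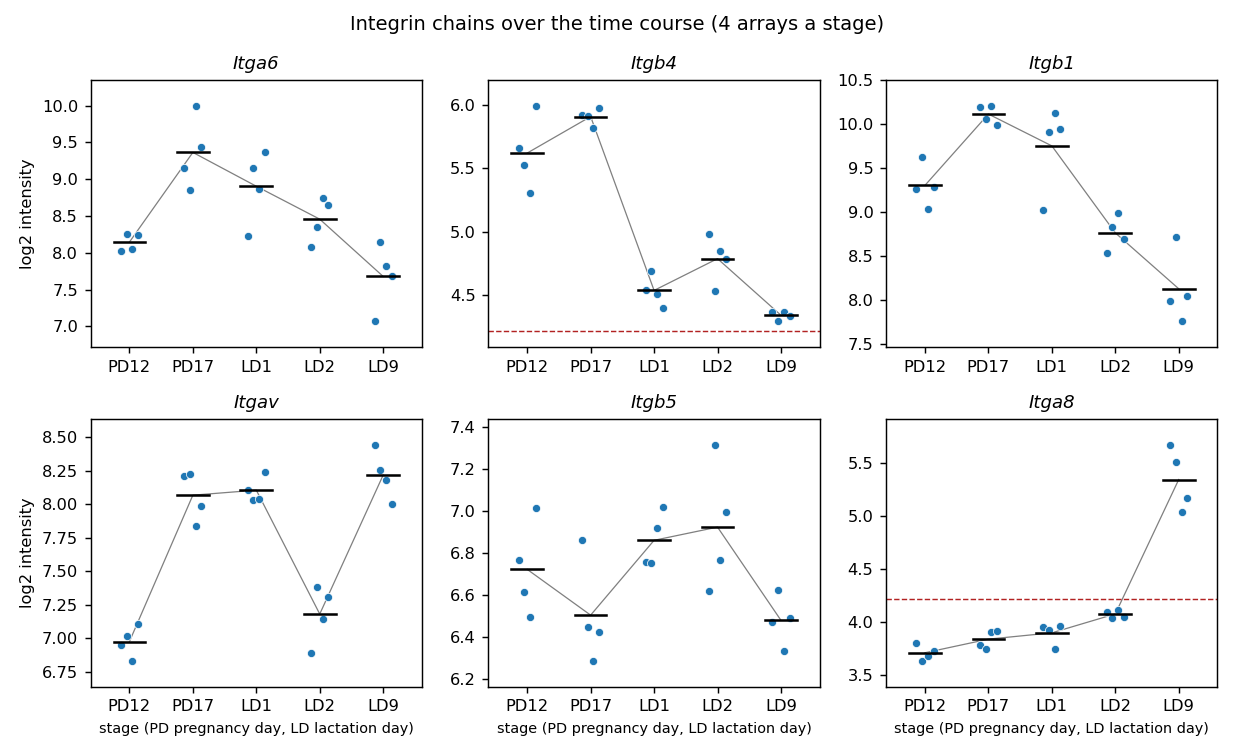
Log2 intensity of 6 integrin chains at the 5 stages of the time course. Points are single arrays, black bars are group means of 4 arrays, grey lines join the means, and the dashed line marks 4.22, the median of all values, in panels that reach it; each panel has its own scale. Itgb1 and Itga6 peaked at PD17, Itgb4 dropped by LD1, Itgav was low at PD12 and LD2, and Itga8 passed the line at LD9 alone.

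Itgav, the alpha v chain that pairs with several beta chains to bind RGD-containing matrix proteins, was low at PD12, high at PD17 and LD1, low at LD2 and high again at LD9. Its arrays read 6.95, 7.01, 6.83 and 7.10 at PD12, 8.21, 8.23, 7.84 and 7.99 at PD17, and 8.11, 8.04, 8.04 and 8.24 at LD1. They read 6.89, 7.38, 7.15 and 7.31 at LD2 and 8.44, 8.26, 8.18 and 8.00 at LD9. No LD2 array overlapped LD1, PD17 or LD9. At LD2 Itgav fell by 0.93 (SE 0.12) relative to LD1 (adjusted p = 2.77e-04), and at LD9 it was 1.04 (SE 0.12) higher than at LD2 (adjusted p = 6.37e-06). A second Itgav probe set fell by 0.69 at LD2 relative to LD1 and was 0.94 higher at LD9 than at LD2 (adjusted p = 0.0019 and 2.18e-05).

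Itgb5 and Itgb3, which encode beta chains that pair with alpha v, did not share this course. Itgb5, a vitronectin-receptor chain, read 6.29 to 6.86 at PD17, 6.62 to 7.32 at LD2 and 6.33 to 6.63 at LD9, with means of 6.72 at PD12 and 6.86 at LD1. Itgb5 was 0.42 (SE 0.15) higher at LD2 than at PD17 (adjusted p = 0.0266) and at LD9 fell by 0.45 relative to LD2 (adjusted p = 0.0363). Those groups overlapped, and each call was lost without any 1 of 5 arrays. A second Itgb5 probe set was 0.30 higher at LD2 than at PD17 (adjusted p = 0.0085) but differed by +0.12 at LD9 from LD2 (adjusted p = 0.347). Itgb3, best known from platelets and from osteoclasts, read 4.19, 3.92, 4.18 and 3.71 at PD12, 4.40, 4.30, 4.47 and 4.44 at PD17, and 4.83, 4.46, 4.45 and 4.51 at LD1. It read 4.77, 4.67, 4.82 and 4.81 at LD2 and 5.08, 4.80, 4.96 and 5.18 at LD9. Its mean lay below the line at PD12, and it passed the line through the later stages alone. The difference of 0.40 at PD17 from PD12 is therefore given without a test. At LD2 Itgb3 was 0.37 higher than at PD17, with no overlap (adjusted p = 0.0141). Over the whole course Itgb3 differed by 1.00 at LD9 from PD12, also given without a test, beside the median drift of 0.47 in probe sets below the line.

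Itga8, the alpha 8 chain that pairs with beta 1 and is known from smooth muscle and kidney, was read above the line at LD9 alone, and passed the filter through that group. It read 5.67, 5.51, 5.04 and 5.17 at LD9, against 4.10, 4.04, 4.12 and 4.05 at LD2. The arrays of the earlier stages lay between 3.63 and 3.96. The difference of 1.27 between these groups, and of 0.40 on a second probe set, is given without a test, since a gene that enters through 1 group had to differ. On the 9 diet arrays of the same gland Itga8 had group means of 4.08 to 4.12, below the line.

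Among the catenins, Jup stood out by its rise at LD2. Jup encodes plakoglobin, which serves both desmosomes and adherens junctions. Its arrays read 7.31, 7.18, 7.31 and 7.03 at PD12, 6.78, 6.39, 6.51 and 6.62 at PD17, and 6.84, 6.58, 6.28 and 6.09 at LD1. They read 8.26, 7.79, 7.82 and 7.42 at LD2 and 6.53, 6.22, 6.99 and 6.76 at LD9. Every LD2 array lay above every array of the other 4 stages. Jup was 1.38 (SE 0.18) higher at LD2 than at LD1, a 2.6-fold difference (adjusted p = 2.77e-04), and 1.25 higher than at PD17 (adjusted p = 2.74e-05), and at LD9 it fell by 1.20 relative to LD2 (adjusted p = 9.94e-05). At PD17 it fell by 0.63 relative to PD12 (adjusted p = 0.00935), a call that quantile normalization ended (adjusted p = 0.0576).

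Ctnnd1, the catenin that binds the membrane-near part of cadherins and slows their removal from the surface, was also higher at LD2 than at LD1. It fell by 0.56 at PD17 relative to PD12 (adjusted p = 0.0107), a call that quantile normalization ended (adjusted p = 0.079), where it read 6.93, 6.96, 6.32 and 6.45 against 7.29, 7.11, 7.32 and 7.19. It read 7.40, 6.95, 7.16 and 6.85 at LD2, against 6.59, 6.47, 6.28 and 6.32 at LD1, without overlap, a rise of 0.68 (SE 0.17, adjusted p = 0.0128). Relative to PD17 it was 0.42 higher at LD2 with overlapping arrays (adjusted p = 0.0423), and the call was lost without any 1 of 4 arrays. The second Ctnnd1 probe set differed by -1.56 at PD17 from PD12 and by 0.69 at LD2 from LD1. Its means lay below the line at PD17, LD1 and LD9. It passed the line through PD12 and LD2 alone, so these differences are given without a test. Ctnnal1, a relative of alpha-catenin, rose slowly near the line, with ranges of 3.36 to 3.73 at PD12, 3.65 to 3.99 at PD17, 3.97 to 4.20 at LD1, 4.31 to 4.37 at LD2 and 4.55 to 4.65 at LD9. Ctnnal1 was 0.56 higher at LD2 than at PD17 and 1.04 higher at LD9 than at PD12, beside the median drift of 0.47 in low values. It lay below the line until LD1 and passed it through LD2 and LD9, so both differences are given without a test.

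The catenins that carry the adherens junction to actin went the other way. Ctnna1, alpha-catenin, read 7.54, 7.98, 7.58 and 8.03 at PD12, 6.87, 6.91, 7.66 and 7.14 at PD17, and 5.96, 6.77, 6.44 and 6.63 at LD1. It read 6.17, 6.31, 6.48 and 6.05 at LD2 and 5.19, 5.14, 5.34 and 5.18 at LD9. Its mean was lower at each stage than at the one before, and LD9 overlapped no other stage. At LD9 Ctnna1 fell by 2.57 (SE 0.18) relative to PD12, a 5.94-fold difference (adjusted p = 3.79e-10) and the largest change at LD9 against PD12 among the 21 genes tested. The steps at PD17 against PD12, LD1 against PD17 and LD9 against LD2 were -0.64, -0.69 and -1.04 (adjusted p = 0.00775, 0.00824 and 2.92e-04). The first 2 of these were no longer called when a dim second probe set, below the line at every stage, was averaged in (adjusted p = 0.137 and 0.0856), and the second was also lost with ribosomal scaling (adjusted p = 0.125). Ctnnb1, beta-catenin, which links cadherins to alpha-catenin and also carries Wnt signals, had means of 10.41, 10.28, 10.18, 9.82 and 9.44 in stage order. It read 9.45, 9.87, 9.40 and 9.05 at LD9, against 10.25, 10.49, 10.18 and 10.69 at PD12. At LD9 Ctnnb1 fell by 0.96 (SE 0.16) relative to PD12 (adjusted p = 1.60e-05), with no overlap.

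**Figure D2:**
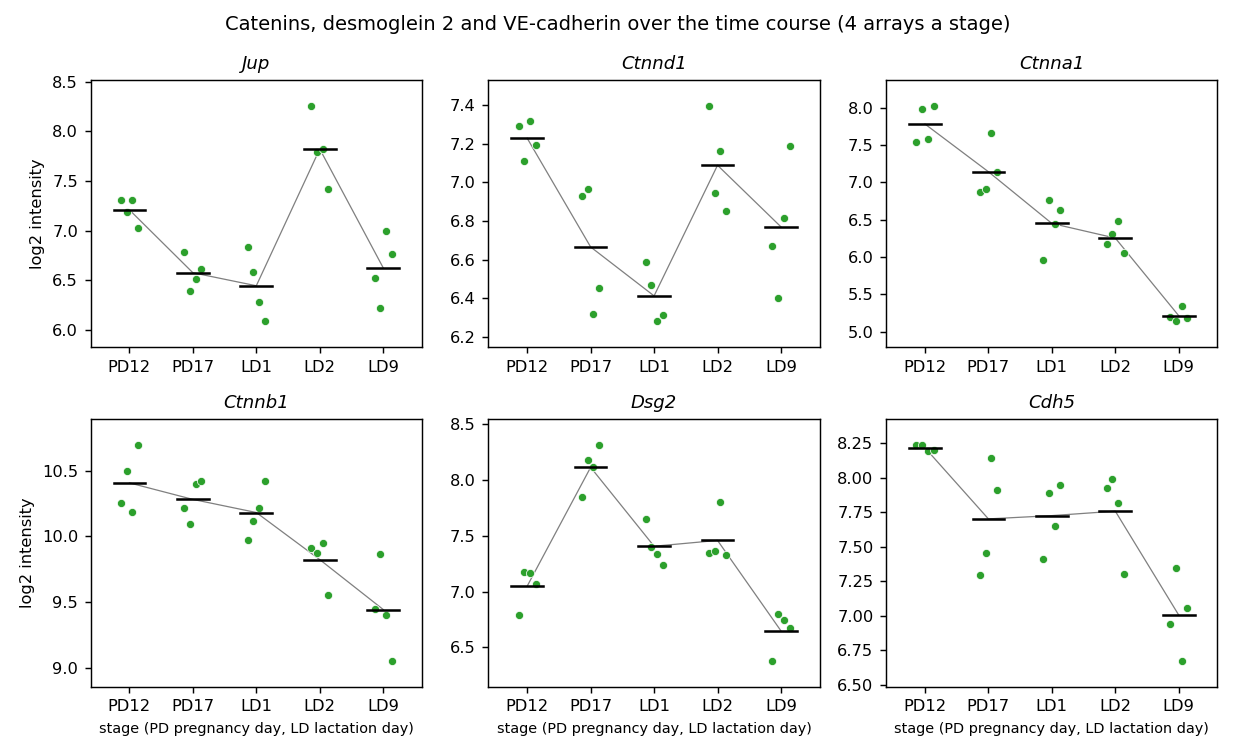
Log2 intensity of 4 catenins, desmoglein 2 and VE-cadherin at the 5 stages, drawn as for the integrin chains, each panel with its own scale. Jup and Ctnnd1 were higher at LD2 than at LD1, Ctnna1 and Ctnnb1 had lower means at each later stage, Dsg2 peaked at PD17, and Cdh5 was lowest at LD9.

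Of the desmosomal genes, Dsg2 and Dsp were tested over the stages by their brighter probe sets. Dsc2 was below the line at every stage by its brighter set, and its other set reached a mean of 4.31 at LD9 against 3.65 at PD12 (a difference of 0.66), after passing through LD9 alone. Dsg2, the desmoglein of simple epithelia, read 7.84, 8.17, 8.12 and 8.31 at PD17, against 6.79, 7.17, 7.16 and 7.07 at PD12, and was 1.06 (SE 0.14) higher at PD17 (adjusted p = 5.66e-06). It read 7.65, 7.40, 7.34 and 7.23 at LD1, 7.34, 7.36, 7.80 and 7.33 at LD2, and 6.38, 6.80, 6.74 and 6.67 at LD9. All PD17 arrays lay above all those of the other stages. At LD1 Dsg2 fell by 0.71 relative to PD17 (adjusted p = 8.42e-04), which ribosomal scaling reduced to -0.39 (adjusted p = 0.0503), and at LD9 by 0.81 relative to LD2 (adjusted p = 2.39e-04). Its second probe set did not follow: it differed by -0.23 at PD17 from PD12 (adjusted p = 0.117) and by -0.02 at LD1 from PD17 (adjusted p = 0.927), and at LD2 it was 0.45 higher than at PD17 (adjusted p = 0.00375), where the brighter set fell by 0.65. Dsp, desmoplakin, which anchors desmosomes to keratin, lay around the line, with 3.98 to 4.74 at PD12 and 3.93 to 4.92 at LD1, and below it at LD2 (3.71 to 3.84) and LD9 (3.29 to 3.81). Dsp passed the line through PD12 and LD1 alone, so its difference of -0.67 at LD2 from LD1 is given without a test. The call there was lost without any 1 of 7 arrays.

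Classical cadherins above the line at some stage were Cdh5, Cdh15 and Cdh2. Cdh5, the VE-cadherin of endothelium, read 6.94, 7.35, 6.67 and 7.06 at LD9, against 8.23, 8.23, 8.19 and 8.20 at PD12, and fell by 1.21 (SE 0.19) relative to PD12 (adjusted p = 8.39e-06). Its means at PD17, LD1 and LD2 lay between, at 7.70, 7.73 and 7.76. Cdh5 fell by 0.51 at PD17 relative to PD12 (adjusted p = 0.0308), a call lost without any 1 of 5 arrays, and by 0.75 at LD9 relative to LD2 (adjusted p = 0.00539), where a single array of each stage overlapped. Of 9 endothelial markers tested at LD9 against PD12, 3 were higher and 5 lower, against 35.2% and 42.4% of all probe sets, with a median change of -0.46, and their summed intensity was 586 to 615 at LD9 against 702 to 843 at PD12. Whether the endothelial share of the gland enters the fall of Cdh5 was not tested. Cdh15, the M-cadherin of muscle, read 6.25 to 6.31 at LD9, against 5.22 to 5.93 at LD2, and was 0.72 (SE 0.19) higher (adjusted p = 0.00897). Its other probe set lay below the line at every stage, with means of 3.65 at LD2 and 3.82 at LD9, and gives no check. The 5 skeletal muscle markers summed to 62 to 76 at LD9 against 60.9 to 76.7 at LD2, with Acta1, Ckm and Myh4 below the line in both. Cdh2, N-cadherin, lay below the line at PD12 and PD17 and passed it through the lactation stages alone. It had means of 3.71 at PD12 and 4.47 at LD9. That difference of 0.76 is given without a test, beside the median drift of 0.47 in low values.

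The leukocyte receptor chains gave little signal in the gland. Itgb2, the beta chain of leukocyte integrins, read 4.66 to 6.03 at PD12, the widest spread of the 21 genes at that stage, and 4.77 to 5.54 at all later stages. The 5 general leukocyte markers summed to 93 to 125 at LD9 against 206 to 404 at PD12. The 7 lymphocyte markers had higher sums at LD9, 153 to 197 against 93.7 to 112 at PD12. At PD12 6 of them lay below the line, and Cd3e, Cd2 and Cd79b still did at LD9. Low values as a whole drifted upward by a median of 0.47 between these stages, so a rise of these markers was not measured. At PD17 against PD12, 2 of the 4 lymphocyte markers tested were higher and 0 lower, against 18.4% and 26.7% of all probe sets. Most of the 4 passed the line through stages after PD12, so this count supports nothing by itself. Itgb7, known from lymphocytes that home to the gut, read 4.39 to 4.70 at PD17 against 4.65 to 4.88 at PD12, and was 0.30 lower (SE 0.08, adjusted p = 0.00837). That call was lost under both other scalings (quantile normalization, adjusted p = 0.129, and ribosomal scaling, adjusted p = 0.21). Itgb1bp1 read 6.77, 6.78, 6.94 and 6.71 at PD17, against 7.17, 7.61, 7.33 and 6.89 at PD12, and fell by 0.45 (adjusted p = 0.0166). The second Itgb1bp1 probe set differed by +0.05 there (adjusted p = 0.731), and the call was lost without PD12 replicate 2 (adjusted p = 0.0687). Itgb1bp1 was 0.51 higher at LD1 than at PD17 (adjusted p = 0.0139), and the call was lost without LD1 replicate 4 (adjusted p = 0.057). Without that array 3 genes were called at LD1 against PD17 in place of 5.

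**Figure D3:**
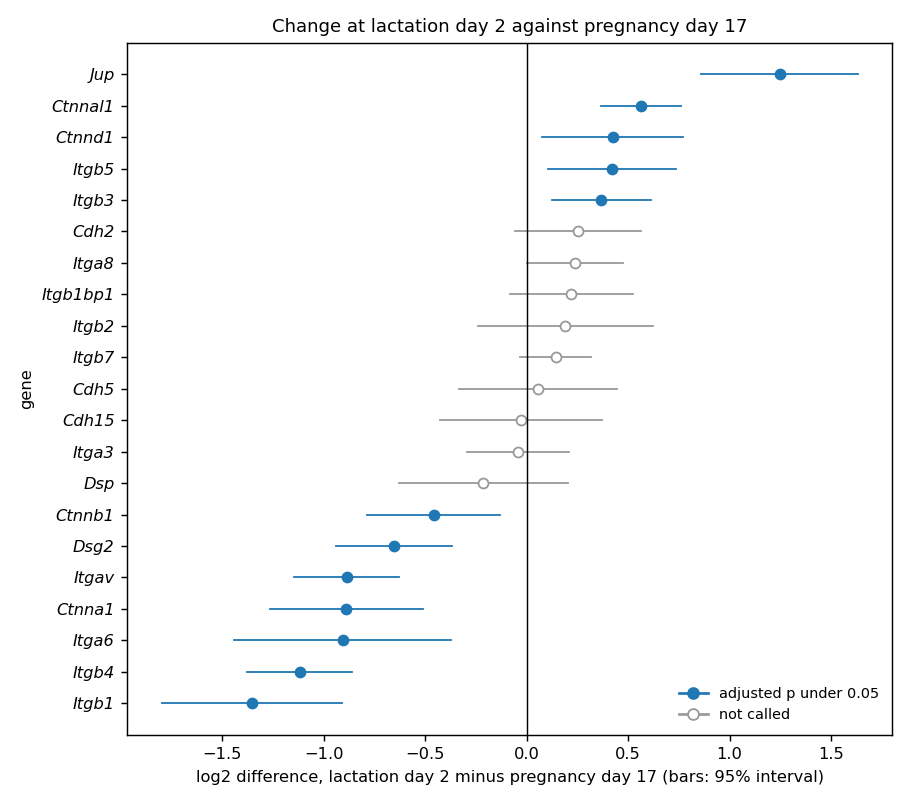
Change of the 21 genes tested at lactation day 2 against pregnancy day 17, as the log2 difference of means of 4 arrays each, with 95% intervals from the limma fit. Filled blue points passed an adjusted p of 0.05 and open grey points did not. Jup lies highest at 1.25, Itgb1 lowest at -1.35, and 9 genes were not called.

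The signed counts depend on how arrays are scaled. With ribosomal scaling, the median change of all probe sets tested at LD2 against PD17 moved to 0.41, and 17 genes were higher and 4 lower of the 27 then tested. The same scaling gave 13 higher and 3 lower at PD17 against PD12, 15 and 1 at LD1 against PD17, 10 and 4 at LD9 against LD2, and 16 and 5 at LD9 against PD12. Itgb1, Itgb4, Itgav, Ctnna1, Dsg2 and Jup kept the directions given for LD2 against PD17 under that scaling and under quantile normalization, although ribosomal scaling ended the call for Dsg2 (adjusted p = 0.088) and for Ctnnb1 (adjusted p = 0.528). At LD9 against PD12, Dsg2 fell by 0.40 (adjusted p = 0.0125) and Ctnnd1 by 0.46 (adjusted p = 0.0177) with the values as deposited, and both turned positive and uncalled under each of these scalings. Jup at LD9 fell by 0.58 relative to PD12 (adjusted p = 0.00733), and neither scaling kept that call (adjusted p = 0.661 and 0.944).

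Partners of these receptors were followed in 3 lists, which hold none of the 46 genes. At LD2 against PD17, 11 of 18 focal adhesion partners were lower and 1 was higher, with a median change of -0.46 beside 0.04 for all probe sets tested, of which 24.5% were lower and 25.5% higher. Actn1, an alpha-actinin that crosslinks actin at adhesions, fell by 1.46 (adjusted p = 1.68e-07), Cd47, which associates with alpha v beta 3 integrin, by 1.44 (adjusted p = 2.71e-07) and Lims1, a partner of integrin-linked kinase, by 1.03 (adjusted p = 7.36e-04). Bcar1, an adaptor at adhesions, was 0.95 higher (adjusted p = 2.76e-05). Of 14 desmosome and adherens partners, 7 were lower and 1 higher (median -0.43), so that the share called lay near the 49.9% of all probe sets. Epcam, an epithelial adhesion molecule, averaged 6.37 at LD2 and 7.67 at PD17 (adjusted p = 5.06e-05), and falls were also called for Vcl, vinculin, by 0.94 (adjusted p = 4.39e-04) and Tjp1, a junctional scaffold, by 0.74 (adjusted p = 0.00858), while Numb was 0.60 higher (adjusted p = 0.0135). Of 21 integrin ligands, 9 were lower and 2 higher (median -0.44), again a share near 49.9%. Lama4, a laminin chain of vessel walls, was 1.86 lower at LD2, where its mean lay below the line, a difference given without a test. Col1a2, a collagen chain, fell by 1.67 (adjusted p = 5.85e-04) and Lamb3, a chain of epithelial laminin, by 1.61 (adjusted p = 7.05e-05). Tnc, tenascin C, was 0.88 higher and Mfge8, a milk fat globule protein that binds alpha v integrins, 0.65 higher (adjusted p = 0.0049). With ribosomal scaling the medians of the 3 lists were -0.13, -0.10 and -0.12. Fibroblast markers summed to 4770 to 6560 at LD2 against 10500 to 11100 at PD17, and their part in the falls of matrix ligands was not tested.

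Dietary fat moved none of these genes past the threshold. On 40% against 8% fat 0 of 19 genes tested were called, against a background of 0.0925% (0.0463% higher and 0.0463% lower), and 2 had an unadjusted p under 0.05. On 40% against 16% the count was also 0, against 0.123% (0.0771% higher and 0.0463% lower), with 3 at that unadjusted p, and on 16% against 8% it was 0, against 0%, with 4. Groups did not overlap for 4, 3 and 8 genes in these comparisons, against 13.1%, 17.1% and 21.4% of all probe sets tested. Itgav had the largest difference between the outer diets. It read 8.51, 8.97 and 8.52 on 8% fat, 8.91, 8.41 and 8.89 on 16% fat, and 9.88, 9.59 and 9.02 on 40% fat. All 40% arrays lay above all others, though the lowest of them, at 9.02, was close to the highest 8% array, at 8.97. The difference of 40% from 8% was 0.83 (95% interval 0.31 to 1.34, adjusted p = 0.308). Another Itgav probe set, which measures the same gene on the same arrays, differed by 0.82 (adjusted p = 0.19). The dimmest Itgav set differed by 0.69, with means below the line on 8% and 16% fat (3.71 and 3.96). It passed the line through the 40% group alone, so that difference is given without a test.

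Itga6 read 6.91, 7.29 and 6.83 on 8% fat, 6.53, 7.13 and 6.28 on 16% fat, and 7.40, 7.55 and 7.50 on 40% fat. The 40% arrays lay above the others, and differed by 0.84 from 16% (95% interval 0.38 to 1.29, adjusted p = 0.132) and by 0.48 from 8% (adjusted p = 0.57). Without replicate 2 of the 16% group, Itga6 was called against 16%, so that the count became 1. Itgb1 differed by -0.11 between 40% and 8% fat (adjusted p = 0.908), with a 95% interval from -0.37 to 0.16. Itgb4 differed by -0.22, but its means on 40% and 16% fat lay below the line. It passed the line through the 8% group alone, so that difference is given without a test. Summed myoepithelial markers were 2340 to 2600 on 8%, 1740 to 2250 on 16% and 1740 to 2300 on 40% fat. The intervals of Itgav, Itga6 and Itgb1 do not show that the diets leave them alike. For Itgb4 the size of a change was not measured.

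**Figure D4:**
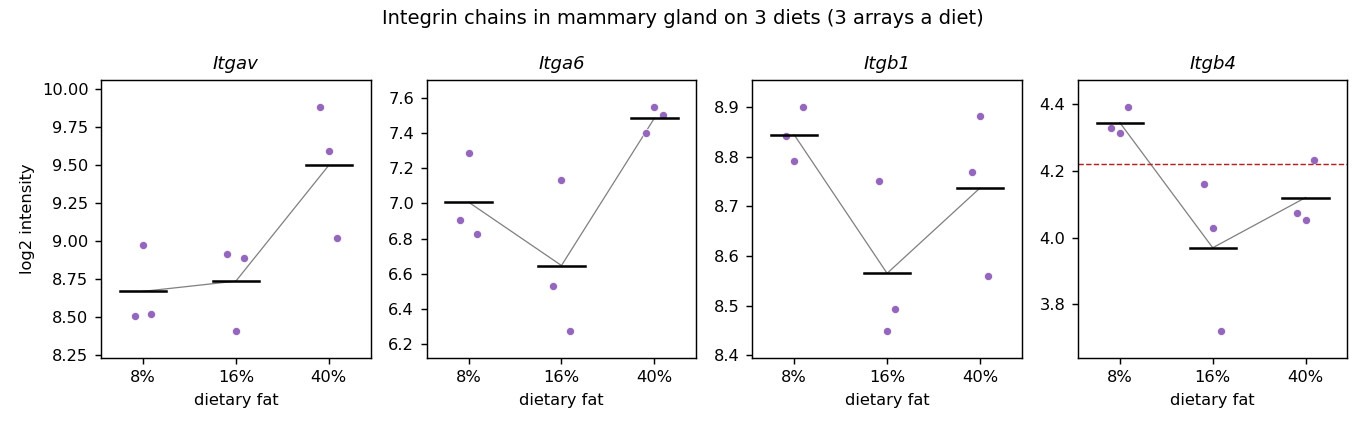
Log2 intensity of 4 integrin chains in mammary gland on 8%, 16% and 40% dietary fat, each panel with its own scale. Points are single arrays, black bars are means of 3 arrays, grey lines join the means and the dashed line marks 4.22. Itgav and Itga6 read highest on the 40% arrays, and no difference passed the threshold. The Itgb4 means on 16% and 40% fat lay below the line.

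On 8% fat, liver read higher than mammary gland for N-cadherin, the desmosomal proteins and alpha-catenin, and lower for Itga6, Itgav, Itgb4, Jup and Cdh15. Of 21 genes tested, 18 were called (85.7%), against a background of 80.0%: 8 were higher in liver (39.7% of all probe sets) and 10 lower (40.3%). Groups did not overlap for 18 genes, against 83.1% of all probe sets. Cdh2, Dsp and Dsc2 passed the line through liver alone, and Itga6, Itgb4, Itgb3 and Ctnnal1 through the gland alone, so they had to differ and the counts support nothing. In the check of the tissue labels, hepatocyte markers summed to 94800 to 107000 in liver against 467 to 1250 in the gland, and milk protein and secretion genes to 71.8 to 82.6 in liver against 183000 to 188000 in the gland. Cdh2, a cadherin of hepatocytes, read 8.29, 8.54 and 8.51 in liver, against 4.10, 4.05 and 4.09 in the gland, a difference of 4.37. The gland's Cdh2 values lie below the line, so the true ratio was not measured and no test is given.

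The desmosomal genes read higher in liver by their brighter probe sets. Dsp read 7.17, 6.81 and 6.89 in liver, against 3.65, 3.56 and 3.57 in the gland (a difference of 3.36). Dsc2, a desmocollin, read 6.95, 7.35 and 7.22 in liver, against 3.88, 3.87 and 3.80 in the gland (a difference of 3.32), and both are given without a test for the same reason. Dsg2 read 7.92, 7.80 and 7.60 in liver, against 6.39, 6.45 and 6.25 in the gland (1.41, adjusted p = 1.27e-05), while its second probe set differed by -0.21 (adjusted p = 0.203). Ctnna1 read 7.08, 7.01 and 6.84 in liver, against 5.68, 5.60 and 5.71 in the gland, a rise of 1.32 (adjusted p = 7.95e-06). Jup, by contrast, read 5.42, 5.60 and 5.62 in liver, against 6.96, 6.67 and 6.49 in the gland, and fell by 1.16 in liver (adjusted p = 1.21e-04). With ribosomal scaling the Jup difference was -0.21 (adjusted p = 0.207).

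Itga6 had the most negative difference in liver. It read 3.51, 3.33 and 3.04 in liver, below the line, against 6.91, 7.29 and 6.83 in the gland, a difference of -3.71. Itgb4 also lay below the line in liver, at 3.27 to 3.56 against 4.31 to 4.39 in the gland. Itgav read 6.94, 7.02 and 7.03 in liver, against 8.51, 8.97 and 8.52 in the gland, and fell by 1.67 (adjusted p = 1.54e-05). Cdh15 fell by 1.58 (adjusted p = 5.90e-05), while its other probe set lay below the line in both tissues. The differences of Ctnnal1 and Itgb3, also below the line in liver, were -1.01 and -0.79. Summed myoepithelial markers were 207 to 254 in liver against 2340 to 2600 in the gland, and their part in the Itga6 and Itgb4 differences was not tested.

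The smaller tissue differences turned with the scaling. With the values as deposited, Itgb1 was 0.58 and Ctnnb1 0.57 higher in liver (adjusted p = 4.26e-04 and 4.58e-04), and under quantile normalization the differences were -0.03 and -0.10. Cdh5, Itga3 and Itgb1bp1 fell by 0.30, 0.45 and 0.45 in liver (adjusted p = 0.0464, 0.00751 and 0.00172), and these and Itgb3 were positive with ribosomal scaling, a scaling under which the median of all probe sets tested was 0.99. That scaling gave 14 higher and 3 lower of the 19 genes then tested. Itgb5 was 0.69 higher in liver on its brighter probe set (adjusted p = 3.43e-04) and differed by -0.34 on the other. Ctnnd1 differed by -0.24 on its brighter set (adjusted p = 0.144) and by 2.60 on the other. The other Itgb5 set lay below the line in liver, and the other Ctnnd1 set in the gland. Each passed the line through 1 tissue alone, so the differences of these other sets are given without a test. Their sizes were not measured.

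**Figure D5:**
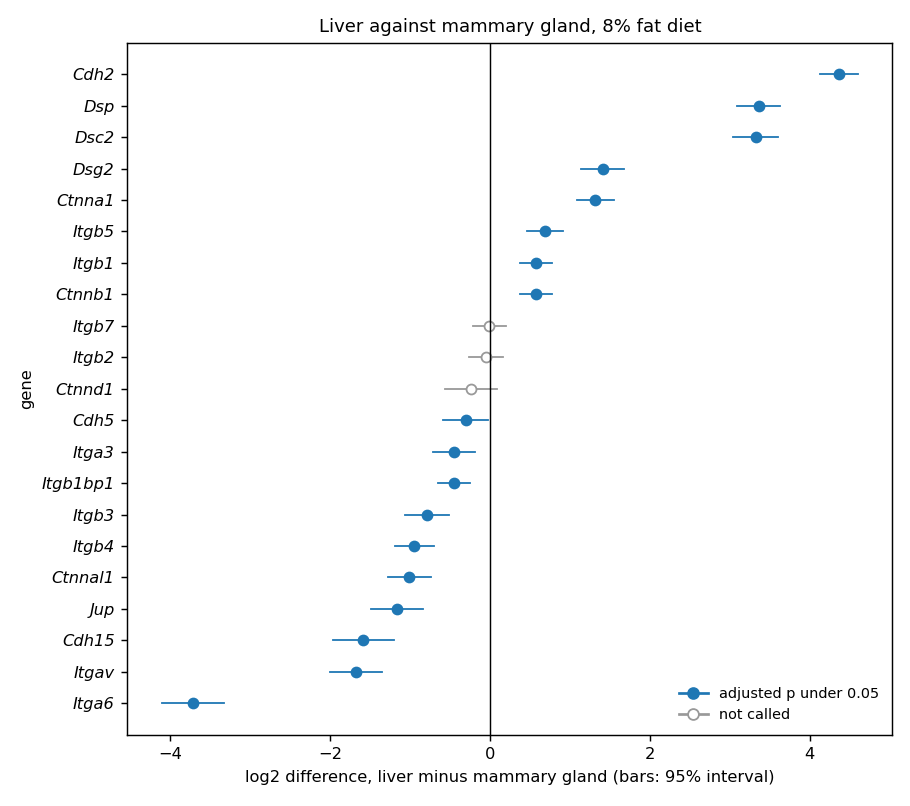
Difference of the 21 genes tested between liver and mammary gland on 8% fat, as the log2 difference of means of 3 arrays each, with 95% intervals from the limma fit. Filled blue points passed an adjusted p of 0.05 and open grey points did not. Cdh2, Dsp and Dsc2 lie above 3, Itga6 lies at -3.71, and Itgb7, Itgb2 and Ctnnd1 were not called.

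Among partners in liver, Sdc1, a heparan sulfate syndecan, was 5.41 higher and Cav1, caveolin 1, was 3.74 lower. Of the focal adhesion partners, 7 were higher and 9 lower of 19 tested, a share near the 80.0% of all probe sets called. Of the desmosome and adherens partners, 5 were higher and 4 lower of 15, a share below that background. Pkp4, a plakophilin relative, was 2.61 higher (adjusted p = 2.05e-07), and Epcam was 5.08 lower, at a level below the line. Of 20 integrin ligands, 4 were higher and 15 lower, against 39.7% and 40.3% of all probe sets. In this list Lamb2, Lamb3, Tnc, Nid2 and Madcam1 lay below the line in liver and passed it through the gland alone. They had to read lower in liver, so the counts and median of the ligands support nothing by themselves. Vtn, vitronectin, a plasma protein made by liver, was 9.67 higher, and Mfge8 fell by 7.57 (adjusted p = 1.64e-09). Sdc1 and Vtn lay below the line in the gland, and Cav1 and Epcam in liver, so these genes had to differ. Their differences are given without a test, and the sizes were not measured. The ligand median was -1.42 in liver, and -0.47 and -1.47 with ribosomal scaling and with quantile normalization.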

How the data were processed

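The authors deposited 1 table of intensity values on a linear scale for 12488 probe sets and 32 arrays. GCRMA, a method that removes background, normalizes and combines probes, is named per the submitters' processing notes, with no version or settings. Per the labels, each array was made from total RNA of an individual sample. Intensities were used as deposited, with 208 values under 1 raised to 1 before log2.

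Groups came from the sample titles. The 46 genes and all lists were chosen with earlier results of these data known. Gene names came from the array's annotation table, checked through RefSeq (10817 of 10833 single-gene probe sets matched, 0 symbols changed). A further 396 probe sets list more than 1 gene and 1193 have no listed gene, and 66 control probe sets were left out. Probe sets ending in f_at, as for Itgb1 and Itgav, can also read related transcripts.

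The filter kept probe sets with a group mean of at least the median of all values (an intensity of 18.6). Limma 3.58.1 in R 4.3.3 was fitted to the 20 time course, 9 diet and 6 tissue arrays, with Benjamini-Hochberg adjustment over all probe sets tested and a threshold of 0.05. The p-values measure the spread between arrays, and the labels do not name the animals. The procedure was tested on simulated data.

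By rule the text names, in each comparison, up to 6 called rises and 6 called falls, a fixed set of epithelial, endothelial and leukocyte adhesion genes, and up to 3 called rises and 3 called falls per partner list; any other gene was chosen with its values known. Alternatives were no filter, a filter at the 75th percentile (69.5), a floor at 16, quantile normalization, equal medians of 18 ribosomal protein genes, averaging a gene's probe sets, a fit of only the compared groups, a replicate block and each array left out in turn. A fit without LD9 replicate 1 for the comparisons between other stages was chosen after the data were seen. Promoters came from RefSeq's table.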

Additional observations from a re-analysis of the deposited data

Results flagged for a closer look

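In groups of 4 arrays, an array was singled out where its gap to the nearest of the others exceeded the 95% critical value of Dixon's test. This held in 7 of the 105 groups examined (21 genes at 5 stages), where chance singles out about 1 in 20, or 5.25. All values are log2 intensities. Cdh2 read 4.668 on LD1 replicate 4 (others 4.042 to 4.111) and 4.268 on LD9 replicate 2 (others 4.521 to 4.557). Dsg2 read 7.799 on LD2 replicate 3 (others 7.325 to 7.362). Itga3 read 5.237 on PD17 replicate 1 (others 4.845 to 4.908). Itgb1bp1 read 7.035 on LD9 replicate 4 (others 7.156 to 7.179). Itgb3 read 4.83 on LD1 replicate 1 (others 4.452 to 4.511), and Itgb7 read 4.588 on LD9 replicate 2 (others 4.64 to 4.645). The number lies near what chance gives.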

How the results depend on the processing

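With no filter the genes called were 29 at PD17 against PD12, 30 at LD2 against PD17, 38 at LD9 against PD12, 40 over the 5 stages and 42 in liver against mammary gland, which follows from testing all 46. The filter at the 75th percentile gave 3 at LD1 against PD17, 9 at LD9 against PD12 and 12 over the 5 stages. Quantile normalization gave 7 at PD17 against PD12, and equal ribosomal medians gave 16 at LD1 against PD17 and 21 at LD2 against PD17. With each array left out in turn, 3 to 5 genes were called at LD1 against PD17 and 0 to 1 on 40% against 16% fat. Without LD9 replicate 1, 8 were called at LD9 against LD2 in place of 12, and the same fit moved no count of the comparisons between other stages.

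With equal ribosomal medians these differences turned: Itga3 0.285 at LD2 against PD17; at LD9 against PD12 Itgb7 0.416, Itgb1bp1 0.452, Itgb2 0.453, Itga3 0.461, Dsg2 0.168 and Ctnnd1 0.11; in liver Itgb7 0.943, Itgb1bp1 0.506, Itgb2 0.904, Cdh5 0.649, Itga3 0.506, Ctnnd1 0.712 and Itgb3 0.166. With quantile normalization Itgb1bp1 (0.396), Dsg2 (0.089) and Ctnnd1 (0.045) turned at LD9 against PD12, and Itgb1 (-0.031) and Ctnnb1 (-0.101) in liver. With the mean of all probe sets Itgb1bp1 (0.299) turned at LD9 against PD12 and Ctnnd1 (1.177) in liver. The cause was not tested.

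Same-numbered arrays' deviations from their group means correlated at -0.23 to 0.27 in the time course (9 of 40 pairs over 0.1). The range was -0.18 to 0.14 in the diet arrays and -0.01 to 0.02 between tissues. Such correlations cannot exclude that the replicate numbers pair samples. With the replicate block the counts were 12, 5, 5, 12, 12 and 15 for the stage comparisons in the order given, 19 over the stages, 0 for each diet comparison and 18 in liver, as without it. Values under an intensity of 18.6 limit what can be said of the 25 genes below the line.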
